A study of Mus musculus with 24 samples.

Results

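The comparison of 12 h of reperfusion with sham surgery covered 6 of the 24 libraries of a mouse heart time course, 3 in each group, chosen by their treatment labels alone. The 12 h group held hearts of C57BL/6 mice that had 45 min of ischemia, a stop of blood flow to the heart muscle, and then 12 h of restored flow. The sham group held C57BL/6 hearts after surgery without ischemia. Hearts taken 6 h after the same ischemia were set beside the 12 h hearts where the course in time mattered, and the other groups were ischemia alone and 0.5, 1, 1.5 and 3 h of reperfusion. No transgene or drug is named in the labels, and they do not say which part of the heart was taken or how many animals gave the 3 libraries of a group. P-values here weigh differences against the scatter among libraries, some of which could be technical. The title of the study names ATF3, FANCD2 and ferroptosis, a form of cell death driven by iron and oxidised lipids, as its subject.

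Ischemia kills heart muscle cells, and returning blood brings oxygen, plasma and white cells to the injured wall. Injured cells and resident macrophages release chemokines, small proteins that draw neutrophils first and monocytes next, while surviving muscle cells change the genes for contraction, ion currents and fuel use. Monocytes that enter the wall later clear debris and take part in building scar matrix.

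The 12 h libraries held 15767490 to 17181458 counted reads and the sham libraries 13407465 to 15870974. Levels are given as CPM, read counts scaled to a common library size, and differences as log2 fold changes ± SE, 12 h minus sham. A gene is called higher or lower at an adjusted p under 0.05 in edgeR's quasi-likelihood test. Gene coordinates are those of the GENCODE annotation on GRCm38. The heart label was checked against its markers. Myh6, the main myosin of mouse ventricle, had 19135, 18895 and 23156 CPM in 12 h hearts, against 26689, 25219 and 25004 CPM in sham hearts, and Tnnt2, a troponin of the heart, had 4532, 4899 and 4714 CPM in 12 h hearts, against 4541, 4845 and 4466 CPM in sham hearts. Every 12 h library was below every sham library for Myh6, the groups overlapped for Tnnt2, and neither gene was called. The atrial genes Myl7 and Sln had too few reads to be tested, and so did 7 of 8 lung epithelium markers and all 8 adipocyte markers. Duplicate reads made up 39.2% to 47.7% of 12 h libraries, against 50.1% to 54.4% of sham libraries.

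Of 15128 genes tested, 2551 (16.9%) were higher at 12 h and 2256 (14.9%) were lower, and the median of all tested genes was 0.01 on the log2 scale. At an unadjusted p under 0.05 there were 6264, and 2875 of the 4807 called genes kept the call without each of the 6 libraries in turn. At least 2-fold differences were found for 927 of the higher and 705 of the lower genes, and at least 8-fold differences for 145 and 37. With library totals in place of trimmed-mean factors, the median of all genes was 0.23, and 4079 genes were higher and 1229 lower, so 76.8% of calls were higher, against 53.1% with those factors. Shares of gene lists are read against 16.9% higher and 14.9% lower. How many of all tested genes had 12 h and sham libraries without overlap was not counted. A lack of overlap therefore describes the genes named and is no added test. Where a list has 0 genes called in a direction by edgeR, an unadjusted p under 0.05 found 0 in that direction too, except for 1 interferon-stimulated and 1 citric acid cycle gene with a higher value, and DESeq2 and limma-voom called 0. With library totals fewer genes were lower among those of endothelium (1 in place of 3), smooth muscle and pericytes (3 in place of 5), nerve (2 in place of 4), complement (2 in place of 4), collagens (2 in place of 4), the cell cycle (2 in place of 4), lysosomes (1 in place of 4), ferroptosis (3 in place of 5), angiogenic signals (3 in place of 5) and glucocorticoid response (1 in place of 3). The only lower gene of the monocyte, T and NK, platelet, adhesion, acute phase, clotting, NRF2, heat shock and proteasome lists lost its call without 1 or more single libraries. In heart tissue as a whole, fewer cells of a type and less RNA per cell cannot be told apart.

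Genes that draw white cells were among those with the largest rises, and the genes with the largest falls included collagen, myosin and transporter genes. Cxcl5, a chemokine for neutrophils (ENSMUSG00000029371, chr5:90759360-90761624, plus strand), had 38.6, 56.7 and 46.2 CPM in 12 h hearts, against 0.128, 0.0685 and 0 CPM in sham hearts. That is 2639 reads in 12 h hearts against 3 in sham hearts, a ratio of 675 with an exact 95% interval of 231 to 3277 over the pooled reads. No molecular identifiers were counted, so reads are not separate molecules, and this and later intervals cover counting error only. Prg4, which encodes lubricin, had 205, 174 and 219 CPM in 12 h hearts, against 6.23, 4.93 and 4.64 CPM in sham hearts (5.23 ± 0.24, adjusted p = 3e-13). Cxcl5 was nearly absent from sham hearts and Prg4 was not, and the groups lay far apart for both. Lrp8, a receptor for apolipoprotein E and reelin, had 18.9, 23.1 and 30.0 CPM in 12 h hearts, against 1.03, 0.479 and 0.160 CPM in sham hearts (5.35 ± 0.55, adjusted p = 1.39e-07). Ereg, an EGF receptor ligand, had 604 reads in 12 h hearts against 3 in sham hearts, a ratio of 155 (interval 52.6 to 752).

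Among the falls, Col6a6, a collagen VI chain, had 0.989, 1.21 and 1.31 CPM in 12 h hearts, against 13.6, 14.2 and 13.4 CPM in sham hearts (-3.55 ± 0.27, adjusted p = 2.04e-09). Lrrc15, a surface protein of fibroblasts, had 4.56, 5.05 and 7.28 CPM in 12 h hearts, against 40.5, 44.0 and 43.3 CPM in sham hearts (-2.92 ± 0.25, adjusted p = 1.03e-08). Myh7b, a myosin gene whose intron holds miR-499, had 9.502, 8.64 and 15.98 CPM in 12 h hearts, against 97.4, 93.6 and 78.2 CPM in sham hearts (-2.98 ± 0.34, adjusted p = 4.18e-07). In each of these 3 genes all 12 h libraries lay below all sham libraries, which their selection required, and by a wide margin. Inmt, an indole methyltransferase, had 0.165, 0.606 and 0.569 CPM in 12 h hearts, against 6.61, 4.66 and 9.43 CPM in sham hearts (-3.91 ± 0.45, adjusted p = 5.15e-07), and Srrm4, a splicing factor, had 3.13, 4.40 and 4.21 CPM in 12 h hearts, against 18.1, 21.4 and 26.3 CPM in sham hearts (-2.48 ± 0.22, adjusted p = 1.87e-08). Slc22a3, an organic cation transporter, fell by 2.43 and Itga8, an integrin chain, by 2.42 on the log2 scale. Cyp1a1, a target of the aryl hydrocarbon receptor, had 0.110, 0.404 and 0.569 CPM in 12 h hearts, against 8.604, 28.5 and 0.799 CPM in sham hearts (-5.11 ± 1.22, adjusted p = 0.00245). Its sham libraries spread widely, and the call was lost in limma-voom. Mrgprh, Lrat, Lgi1, Ackr4 and Gal3st2c fell by 2.41 to 3.27 on the log2 scale, and Upk3b, a mesothelial gene, had 0.659, 0.859 and 0.569 CPM in 12 h hearts, against 10.6, 8.70 and 6.88 CPM in sham hearts.

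**Figure D1:**
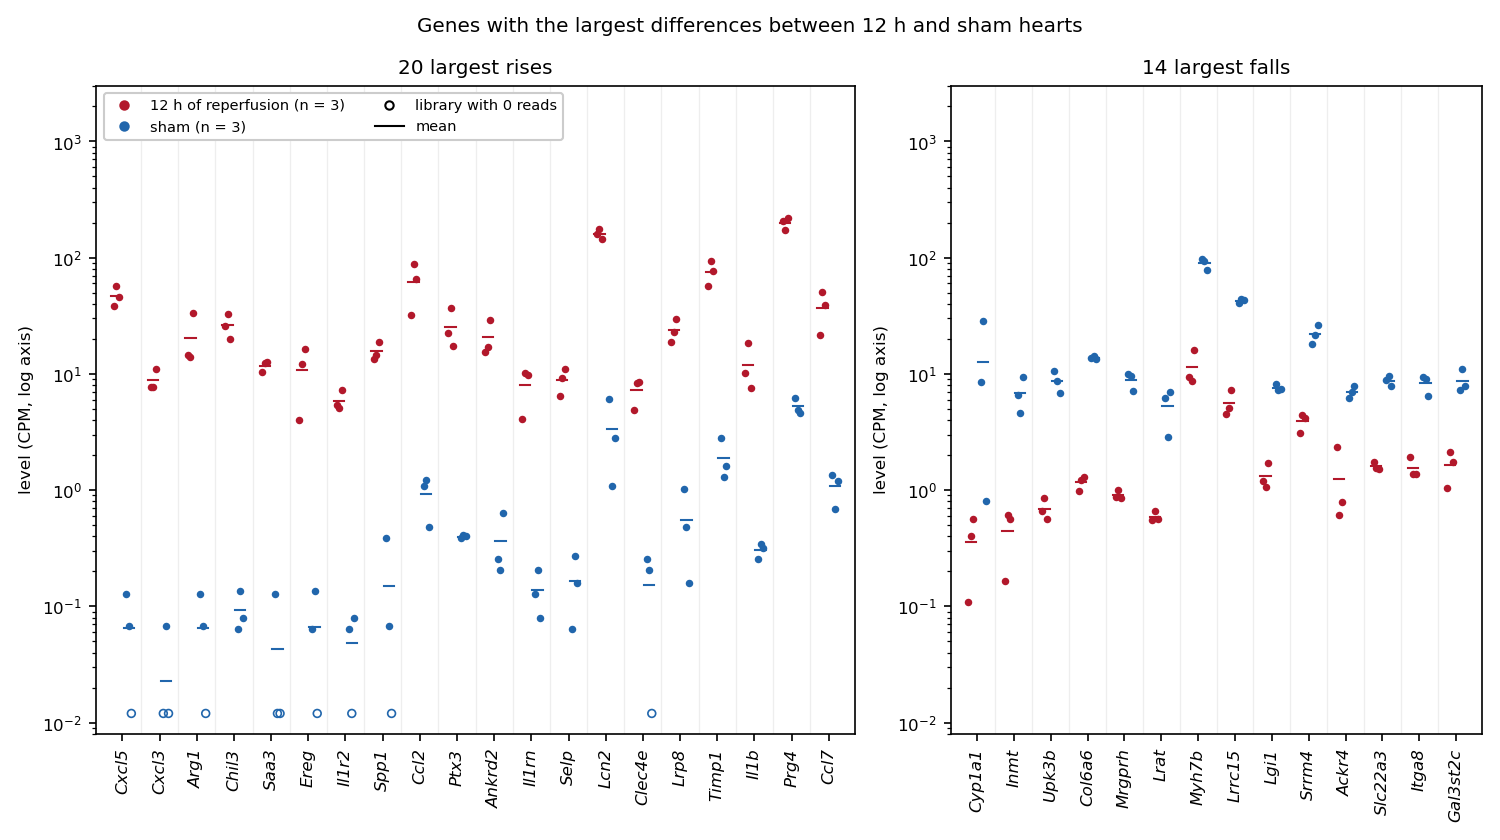
Level in CPM (log axis) of the 20 largest rises and the 14 largest falls at 12 h, 1 point per library, with 12 h in red left of sham in blue, bars at the mean and open circles for libraries with 0 reads. The 34 genes were picked among those whose 12 h and sham libraries do not overlap. Cxcl5 lies at 38.6 to 56.7 CPM at 12 h and at 0 to 0.128 CPM in sham.

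Neutrophil markers were near 0 in sham hearts and clearly present at 12 h. All 11 tested markers of 18 rose, with a median log2 fold change of 4.91, and 7 had too few reads to be tested: Ly6g, Mpo, Ngp, Camp, Ltf, Stfa2l1 and Elane, with Elane at 0 in all 6 libraries. The filter on low counts ran over all 24 libraries. Markers with few sham reads, such as Mmp8 with 1 and Il1r2 with 2, passed it only through groups with more reads. Such genes could hardly be called lower, so the count and the median partly follow from the filter. The monocyte, chemokine, receptor, acute phase, clotting, protease, lysosome and polyamine lists below also hold genes with few sham reads. The same limit applies to their counts and medians. The summed level of the 18 genes was 230 to 300.3 CPM in 12 h hearts and 7.49 to 13.7 CPM in sham hearts. Summed levels, here and below, are CPM of unscaled library totals, unlike the CPM of single genes. S100a9, a calcium-binding protein of neutrophil cytoplasm, had 16.2, 15.6 and 13.2 CPM in 12 h hearts, against 0.128, 0.342 and 1.04 CPM in sham hearts (4.96 ± 0.59, adjusted p = 8.79e-07). Cxcr2, the receptor for CXC chemokines on neutrophils, had 4.45, 5.36 and 6.03 CPM in 12 h hearts, against 0.128, 0.342 and 0.3997 CPM in sham hearts (4.18 ± 0.58, adjusted p = 7.15e-06). The groups did not overlap for either. Il1r2, a decoy for interleukin 1, had 325 reads in 12 h hearts against 2 in sham hearts, a ratio of 125 (interval 34.3 to 1035). Lcn2, lipocalin 2, which binds bacterial iron carriers and is made by neutrophils and by other cells, had 161, 177 and 145 CPM in 12 h hearts, against 6.10, 1.10 and 2.80 CPM in sham hearts (5.57 ± 0.45, adjusted p = 4.61e-09) and alone gave most of the summed level.

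Monocyte and recruited macrophage genes rose too. Of 19 markers 17 were higher, 1 was lower and the median was 2.39, with a summed level of 780 to 1179 CPM in 12 h hearts and 350 to 395 CPM in sham hearts. Some of the 19 also stand in other lists, such as that of matricellular genes. What monocytes and macrophages themselves gave to the sum was not tested. Ccr2, the chemokine receptor of inflammatory monocytes, had 14.2, 16.9 and 16.3 CPM in 12 h hearts, against 3.21, 2.40 and 3.44 CPM in sham hearts (2.39 ± 0.31, adjusted p = 2.58e-06). Chil3, a chitinase-like protein of activated macrophages (ENSMUSG00000040809, chr3:106147554-106167564, minus strand), had 25.9, 32.8 and 20.02 CPM in 12 h hearts, against 0.0642, 0.137 and 0.0799 CPM in sham hearts (8.01 ± 0.60, adjusted p = 2.04e-09). Arg1, arginase 1 (ENSMUSG00000019987, chr10:24915221-24927484, minus strand), had 14.4, 13.9 and 33.2 CPM in 12 h hearts, against 0.128, 0.0685 and 0 CPM in sham hearts, which is 1122 reads in 12 h hearts against 3 in sham hearts and a ratio of 287 (interval 98.0 to 1394). All 3 were higher in every 12 h library than in any sham library, and the third 12 h library was highest for Arg1. F10, coagulation factor X, had 278 reads in 12 h hearts against 1 in sham hearts, a ratio of 213 (interval 38.0 to 8460), and Clec4e, a receptor for products of dead cells and mycobacteria, had 4.94, 8.39 and 8.59 CPM in 12 h hearts, against 0.257, 0.205 and 0 CPM in sham hearts (5.42 ± 0.61, adjusted p = 4.27e-07). Msr1, a scavenger receptor, rose 6.29-fold, and Itgam, an integrin of myeloid cells, 6.26-fold.

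Genes of resident cardiac macrophages were mostly not called. Of 14 tested, 1 was higher, 1 was lower and 12 were not called, with a median of 0.08. F13a1, factor XIII A, had 103, 99.3 and 119 CPM in 12 h hearts, against 49.0, 47.7 and 56.3 CPM in sham hearts (1.07 ± 0.16, adjusted p = 1.46e-05), and Gas6, a bridge to dying cells, had 93.1, 92.6 and 87.8 CPM in 12 h hearts, against 118, 123.3 and 132 CPM in sham hearts (-0.45 ± 0.12, adjusted p = 0.00674), a call that was lost with library totals. The summed level of the list was 485 to 590 CPM in 12 h hearts and 409 to 439 CPM in sham hearts. These sums do not use the trimmed-mean factors, which were 1.035 to 1.156 at 12 h and 0.9335 to 0.982 in sham. With those factors the 12 h sums would be lower relative to sham.

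Of 22 tested chemokine and cytokine genes 17 were higher and 0 lower, with a median of 2.63. Members with few sham reads, such as Il6 with 1 and Cxcl5 with 3, could hardly be called lower. The count and the median thus partly follow from the filter on low counts. Ccl2, which draws monocytes through Ccr2, had 32.2, 88.3 and 65.0 CPM in 12 h hearts, against 1.09, 1.23 and 0.480 CPM in sham hearts (6.00 ± 0.53, adjusted p = 1.5e-08). Ccl7, a second ligand of Ccr2, had 21.5, 51.0 and 39.2 CPM in 12 h hearts, against 1.35, 0.685 and 1.20 CPM in sham hearts (5.10 ± 0.48, adjusted p = 2.81e-08). Cxcl3, another neutrophil chemokine, had 488 reads in 12 h hearts against 1 in sham hearts, a ratio of 375 (interval 66.9 to 14830). Il1b, interleukin 1 beta, had 10.1, 18.3 and 7.56 CPM in 12 h hearts, against 0.257, 0.342 and 0.320 CPM in sham hearts (5.26 ± 0.55, adjusted p = 1.39e-07). The first 12 h library was lowest for both Ccl genes, though above all sham libraries. Il6, interleukin 6, had 273 reads in 12 h hearts against 1 in sham hearts, a ratio of 210 (interval 37.3 to 8309), and Ptx3, a secreted pattern recognition protein, had 22.6, 36.7 and 17.3 CPM in 12 h hearts, against 0.385, 0.411 and 0.3997 CPM in sham hearts (5.98 ± 0.62, adjusted p = 1.51e-07). Tnf (log2 fold change 1.42 ± 0.86, adjusted p = 0.223) and Cxcl10 (0.89, adjusted p = 0.339) were not called.

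Receptors, decoys and feedback genes rose beside the ligands. Of 25 receptor and decoy genes 19 were higher, 2 were lower and the median was 2.23. Il1r2, Cxcr2, Ccr2 and Clec4e of this list also count among the neutrophil or monocyte markers above. Il1rn, the natural antagonist of the interleukin 1 receptor, had 4.12, 10.2 and 9.72 CPM in 12 h hearts, against 0.128, 0.205 and 0.0799 CPM in sham hearts (5.76 ± 0.66, adjusted p = 5.73e-07), and Clec4d had 5.99, 12.7 and 10.3 CPM in 12 h hearts, against 0.385, 0.411 and 0.640 CPM in sham hearts (4.34 ± 0.46, adjusted p = 2.25e-07). Osmr, the oncostatin M receptor chain, had 120.1, 148 and 165 CPM in 12 h hearts, against 31.9, 29.5 and 30.5 CPM in sham hearts (2.23 ± 0.20, adjusted p = 1.5e-08), whereas Lifr, its relative, fell by 0.84 on the log2 scale (adjusted p = 4.75e-05). Of 17 genes of STAT3 signalling, its SOCS inhibitors and C/EBP factors, 14 were higher and 1 was lower, with a median of 1.18. Socs3, which blocks STAT3 signalling from gp130, had 43.2, 49.4 and 40.9 CPM in 12 h hearts, against 2.95, 2.67 and 1.599 CPM in sham hearts (4.18 ± 0.57, adjusted p = 5.47e-06). Bcl3 and Junb rose 6.10-fold and 5.45-fold.

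Adhesion genes that slow and hold white cells were also higher, in 10 of 15 with 1 lower and a median of 1.66. Selp, P-selectin of endothelium and platelets, had 6.48, 9.15 and 10.97 CPM in 12 h hearts, against 0.0642, 0.274 and 0.160 CPM in sham hearts (5.69 ± 0.53, adjusted p = 2.59e-08). Sele, E-selectin, had 8.62, 19.1 and 21.6 CPM in 12 h hearts, against 1.61, 2.05 and 1.52 CPM in sham hearts (3.24 ± 0.37, adjusted p = 5.66e-07). Both selectins were several times higher in every 12 h library than in any sham library.

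Of 22 acute phase and metallothionein genes 13 were tested, with 10 higher, 1 lower and a median of 3.63. Saa1, Saa2, Orm1, Orm2, Fgb, Fga, Fgg, Crp and Hpx had too few reads to be tested. Members with few sham reads, such as Saa3 with 2, could hardly be called lower, so the count and median partly follow from the filter. Mt2, a metallothionein that binds zinc and copper, had 954, 759 and 813 CPM in 12 h hearts, against 38.9, 19.8 and 63.1 CPM in sham hearts (4.38 ± 0.40, adjusted p = 2.54e-08), and its neighbour Mt1 had 1138, 1030.4 and 1112 CPM in 12 h hearts, against 225, 165 and 309.9 CPM in sham hearts (2.23 ± 0.26, adjusted p = 9.02e-07). Per kilobase, the authors' values were 1777 ± 146 RPKM in 12 h hearts and 307 ± 88.2 RPKM in sham hearts (SD, n = 3 each) for Mt1 and 1332 ± 216 RPKM in 12 h hearts and 51.7 ± 26.3 RPKM in sham hearts (SD, n = 3 each) for Mt2. Serpina3n, a protease inhibitor, had 192, 193 and 202 CPM in 12 h hearts, against 7.45, 4.73 and 5.76 CPM in sham hearts (5.03 ± 0.34, adjusted p = 4.32e-10). Saa3, a serum amyloid A gene expressed outside the liver, had 657 reads in 12 h hearts against 2 in sham hearts, a ratio of 252 (interval 69.5 to 2087).

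Clotting and fibrinolysis genes rose in 10 of 18, with 1 lower and a median of 0.68. Plaur, the urokinase receptor, had 9.28, 17.6 and 18.3 CPM in 12 h hearts, against 2.76, 2.40 and 3.04 CPM in sham hearts (2.46 ± 0.39, adjusted p = 4.45e-05), and Anxa2, a plasminogen receptor subunit, rose 2.30-fold. For Plaur no library of 1 group reached into the other. Serpinb2 had 149 reads in 12 h hearts against 0 in sham hearts, at least 38.1-fold higher with sham set at 3 reads over the group. Complement genes showed no common direction, with 3 of 17 higher and 4 lower, or as few as 2 lower without single libraries. The receptors C5ar1 (1.74 ± 0.27, adjusted p = 2.58e-05) and C3ar1 (0.99 ± 0.21, adjusted p = 0.000748) were higher, and Cd55, which breaks up convertases on host cells, was lower (-1.26 ± 0.23, adjusted p = 0.000225). C3 had 77.3, 110.5 and 74.8 CPM in 12 h hearts, against 237, 114 and 145 CPM in sham hearts, and its call was lost with library totals, in DESeq2 and without 12 h replicate 1, 12 h replicate 3 or sham replicate 1.

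Platelet genes were higher in 3 of 7 tested, Itgb3 among them (1.601 ± 0.27, adjusted p = 9.06e-05), and 1 was lower. Pf4, platelet factor 4, was higher but lost its call without sham replicate 2.

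Matrix genes of early repair rose, while the main fibrillar collagens were not called. Of 19 matricellular genes 10 were higher and 4 lower, with a median of 0.74. Spp1, osteopontin (ENSMUSG00000029304, chr5:104435118-104441050, plus strand), had 13.5, 14.7 and 18.9 CPM in 12 h hearts, against 0.385, 0.0685 and 0 CPM in sham hearts (6.52 ± 0.65, adjusted p = 7.23e-08). Tnc, tenascin C, had 25.3, 47.7 and 55.3 CPM in 12 h hearts, against 3.92, 2.05 and 2.64 CPM in sham hearts (3.89 ± 0.36, adjusted p = 2.89e-08), and Thbs4, thrombospondin 4, had 35.0, 32.3 and 25.6 CPM in 12 h hearts, against 1.16, 3.08 and 1.20 CPM in sham hearts (4.08 ± 0.37, adjusted p = 2.36e-08). All 3 were low in every sham library and higher in every 12 h library. Lgals3, galectin 3, rose 6.31-fold. The proteoglycan gene Lum had 31.8, 35.8 and 31.2 CPM in 12 h hearts, against 74.6, 69.9 and 79.9 CPM in sham hearts (-1.18 ± 0.19, adjusted p = 4.4e-05), and Fbln1, fibulin 1, had 51.7, 44.8 and 47.5 CPM in 12 h hearts, against 83.3, 89.6 and 68.7 CPM in sham hearts (-0.75 ± 0.14, adjusted p = 0.000335).

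Of 25 collagen and collagen-processing genes 8 were higher and 4 lower, and the median was 0.02. Col1a1, Col1a2 and Col3a1 had log2 fold changes of -0.20, -0.36 and -0.67 and were not called. Lox, the enzyme that cross-links collagen, had 50.8, 53.9 and 46.3 CPM in 12 h hearts, against 12.2, 9.32 and 8.79 CPM in sham hearts (2.31 ± 0.20, adjusted p = 1.27e-08), and Col8a1, a short-chain collagen of vessels, had 82.0, 77.1 and 95.6 CPM in 12 h hearts, against 39.0, 37.7 and 41.4 CPM in sham hearts (1.11 ± 0.17, adjusted p = 3.46e-05). Col14a1, a fibril-associated collagen, had 10.8, 10.3 and 7.11 CPM in 12 h hearts, against 28.3, 21.7 and 24.1 CPM in sham hearts (-1.39 ± 0.22, adjusted p = 3.78e-05). Lox and Col8a1 thus rose, and Col14a1 fell, in libraries where the collagen I and III genes were not called.

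Proteases and their inhibitors were higher in 12 of 20, with 3 lower and a median of 1.48. Timp1, an inhibitor of metalloproteinases, had 57.0, 93.6 and 76.4 CPM in 12 h hearts, against 2.83, 1.30 and 1.599 CPM in sham hearts (5.29 ± 0.33, adjusted p = 1.3e-10), whereas Timp2 fell by 0.94 on the log2 scale (adjusted p = 1.34e-05). Adam8, a surface protease of white cells, had 21.6, 24.1 and 30.8 CPM in 12 h hearts, against 1.54, 0.959 and 0.480 CPM in sham hearts (4.63 ± 0.39, adjusted p = 7.83e-09). Adam12 had 14.1, 20.6 and 24.8 CPM in 12 h hearts, against 1.41, 2.33 and 1.44 CPM in sham hearts (3.51 ± 0.31, adjusted p = 1.57e-08) and Adamts4, which cuts versican and aggrecan, rose 8.46-fold. Mmp8, the collagenase of neutrophils, had 240 reads in 12 h hearts against 1 in sham hearts, a ratio of 184 (interval 32.8 to 7308). Among TGF-beta, activin and BMP genes 15 of 22 were higher and 2 lower, with a median of 0.87. Fstl3, an activin inhibitor, had 17.1, 11.5 and 16.04 CPM in 12 h hearts, against 2.18, 0.479 and 1.12 CPM in sham hearts (3.53 ± 0.33, adjusted p = 2.59e-08). Inhbb, an activin subunit, had 10.2, 11.4 and 23.4 CPM in 12 h hearts, against 1.80, 2.67 and 1.20 CPM in sham hearts (2.96 ± 0.48, adjusted p = 5.18e-05). Ltbp2, a matrix protein related to the TGF-beta binding proteins, had 11.7, 11.5 and 12.0 CPM in 12 h hearts, against 3.72, 2.60 and 3.12 CPM in sham hearts (1.89 ± 0.24, adjusted p = 2.22e-06), and Ltbp1 fell by 0.81 on the log2 scale (adjusted p = 3.73e-06).

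MHC class II genes fell in the same libraries in which myeloid genes rose. MHC class II molecules display peptides to CD4 T cells, and dendritic cells, B cells and some macrophages express them. H2-Aa, the alpha chain of I-A (ENSMUSG00000036594, chr17:34282744-34287823, minus strand), had 19.7, 28.5 and 30.9 CPM in 12 h hearts, against 114, 101 and 104 CPM in sham hearts (-2.01 ± 0.22, adjusted p = 2.84e-07). H2-Ab1, its beta chain (ENSMUSG00000073421, chr17:34257689-34269419, plus strand), had 16.5, 22.0 and 19.3 CPM in 12 h hearts, against 73.3, 63.4 and 66.3 CPM in sham hearts (-1.81 ± 0.20, adjusted p = 4.16e-07). H2-Eb1, the beta chain of I-E (ENSMUSG00000060586, chr17:34305867-34316674, plus strand), had 24.2, 29.7 and 24.1 CPM in 12 h hearts, against 96.1, 74.7 and 76.1 CPM in sham hearts (-1.66 ± 0.21, adjusted p = 1.64e-06). For these 3 genes every 12 h library lay far below the lowest sham library. Cd74, the invariant chain that guides class II molecules, had 76.5, 101 and 90.8 CPM in 12 h hearts, against 240.3, 219 and 205 CPM in sham hearts (-1.31 ± 0.20, adjusted p = 2.91e-05). The 4 genes were also lower at 12 h than in each of the 7 other groups, with log2 differences from 6 h of -1.09, -1.23, -1.18 and -0.80. They were the only called members of the dendritic list (4 of 10). Zbtb46, Xcr1 and Clec9a, markers of dendritic cells themselves, had log2 fold changes of 0.20, 0.45 and 0.17 and were not called. The summed level of the list was 199 to 250.3 CPM in 12 h hearts and 445 to 545 CPM in sham hearts, and what dendritic cells contributed was not tested. Ciita, the coactivator that switches class II genes on, stands in no list and was chosen after its values were seen. It had 1.15, 1.41 and 1.65 CPM in 12 h hearts, against 4.05, 4.04 and 3.20 CPM in sham hearts (-1.42 ± 0.35, adjusted p = 0.00287), all 12 h libraries below all sham libraries. Unlike the 4 genes above, Ciita was not called between 12 h and 6 h (-0.04 ± 0.37, adjusted p = 0.957). Its mean was 1.23 CPM at 1.5 h and 0.763 CPM at 3 h, against 1.41 CPM at 12 h.

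Because the class II genes moved together, promoters of theirs are shown. The RefSeq table (GRCm38.p6, 250 bases before to 50 after the annotated start) matched H2-Aa and H2-Eb1. Capitals mark the Y box core CTGATTGG, searched on both strands, which NF-Y binds in class II promoters. The window of H2-Aa is chr17:34287774-34288073 on the minus strand and that of H2-Eb1 is chr17:34305617-34305916 on the plus strand, each read along the gene's strand.
H2-Aa: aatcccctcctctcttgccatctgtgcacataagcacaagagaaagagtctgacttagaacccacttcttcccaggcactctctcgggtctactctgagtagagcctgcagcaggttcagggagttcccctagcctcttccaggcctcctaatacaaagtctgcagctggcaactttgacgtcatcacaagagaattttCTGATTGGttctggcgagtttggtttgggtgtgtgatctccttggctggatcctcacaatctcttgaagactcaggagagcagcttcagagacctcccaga
H2-Eb1: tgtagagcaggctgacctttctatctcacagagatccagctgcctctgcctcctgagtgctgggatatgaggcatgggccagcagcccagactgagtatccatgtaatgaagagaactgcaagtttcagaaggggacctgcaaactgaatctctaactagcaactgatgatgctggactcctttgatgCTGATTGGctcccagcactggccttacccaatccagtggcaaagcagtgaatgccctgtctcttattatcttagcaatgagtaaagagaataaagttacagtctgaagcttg
Each window held 1 match, starting 51 bases before the start of H2-Aa and 62 before that of H2-Eb1, and 1346 of 32851 promoter windows (4.10%) held at least 1. A match of letters is a description and not a measured site.

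No tested lymphocyte or interferon-stimulated gene of the lists was called higher by edgeR in the fit of all 24 libraries with trimmed-mean factors and the filter on low counts. Of 10 tested T and NK cell genes 0 were higher, 1 was lower and the median was -1.08, at summed levels of 2.41 to 6.46 CPM in 12 h hearts and 4.47 to 11.4 CPM in sham hearts. Of 8 B cell genes 2 were lower, and Ighm, the IgM heavy chain, had 1.98, 1.92 and 1.76 CPM in 12 h hearts, against 5.71, 11.4 and 8.95 CPM in sham hearts (-2.20 ± 0.24, adjusted p = 3.44e-07). Of 30 interferon-stimulated genes 0 were higher, 5 were lower (16.7%) and the median was -0.36. Cxcl9, a T cell chemokine induced by interferon gamma, had 1.98, 7.63 and 3.30 CPM in 12 h hearts, against 13.5, 11.4 and 11.4 CPM in sham hearts (-1.48 ± 0.40, adjusted p = 0.00682). Gbp3, a guanylate-binding protein, had 11.7, 15.2 and 10.9 CPM in 12 h hearts, against 32.2, 29.0 and 38.8 CPM in sham hearts (-1.40 ± 0.32, adjusted p = 0.00168). No 12 h library reached the lowest sham library for Cxcl9 or Gbp3. That share lower was near the 14.9% of all genes, but with the 6 compared libraries fitted alone, or with no filter on low counts, 11 of the 30 were lower, and 1 or 3 were higher.

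**Figure D2:**
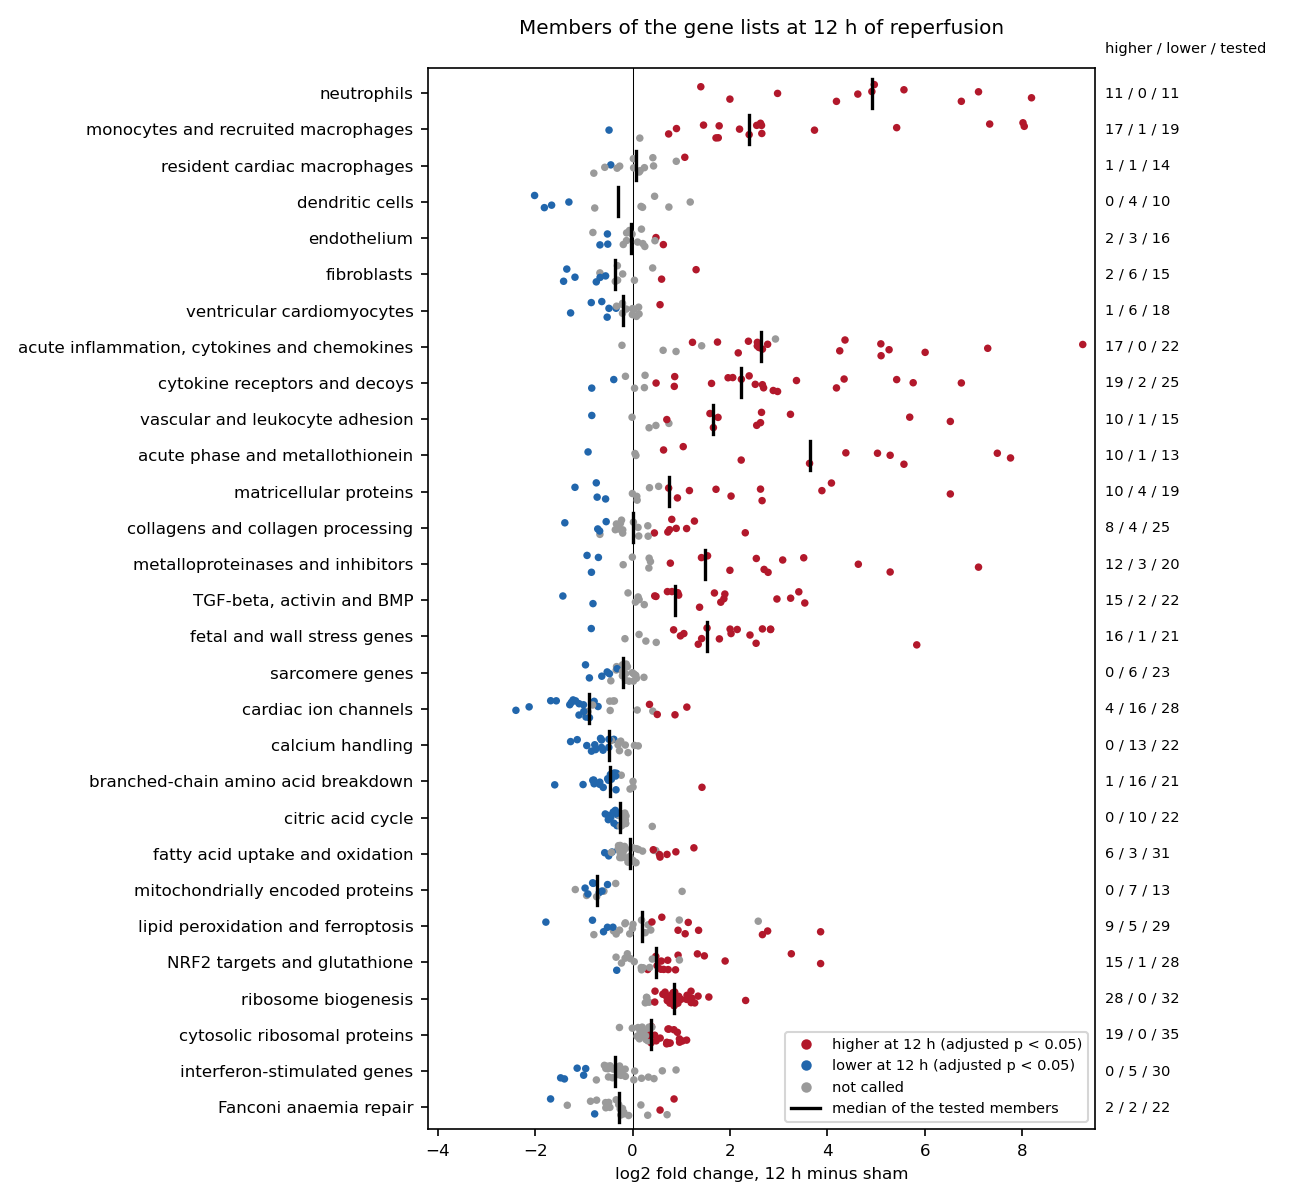
Log2 fold change, 12 h minus sham, of every tested member of 29 gene lists, 1 point per gene, with the median as a bar and the counts higher, lower and tested at the right. Neutrophil genes lie to the right of 0 (11 of 11 higher, some of them testable only through groups with more reads than sham). Ion channel genes lie mostly to the left (16 of 28 lower), and the dendritic list splits into the class II genes and the rest.

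Lists of the vessel wall and stroma held called genes in both directions. Of 16 endothelial markers 2 were higher (12.5%) and 3 lower (18.75%), near the shares of all genes. Pecam1 and Cdh5 had log2 fold changes of -0.01 and -0.07, and neither was called. Emcn, endomucin, had 28.6, 30.8 and 30.0 CPM in 12 h hearts, against 39.9, 48.3 and 54.3 CPM in sham hearts (-0.67 ± 0.15, adjusted p = 0.00165), while Eng, a TGF-beta coreceptor, was higher (0.48 ± 0.12, adjusted p = 0.00371). Erg, an endothelial transcription factor, had 21.4, 25.7 and 25.4 CPM in 12 h hearts, against 30.8, 35.3 and 37.8 CPM in sham hearts (-0.52 ± 0.11, adjusted p = 0.00101), and this call was lost with library totals. Without 1 library or another, Kdr and Egfl7 lost their calls.

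Of 15 fibroblast markers 2 were higher and 6 lower, with a median of -0.36. Islr had 15.7, 9.75 and 6.65 CPM in 12 h hearts, against 26.1, 31.2 and 28.5 CPM in sham hearts (-1.42 ± 0.24, adjusted p = 7.49e-05), and Mfap5, a microfibril protein, had 71.4, 64.8 and 76.0 CPM in 12 h hearts, against 30.5, 25.8 and 29.7 CPM in sham hearts (1.30 ± 0.17, adjusted p = 3.35e-06). Of 14 smooth muscle and pericyte markers 2 were higher and 5 lower. Smtn, smoothelin, had 95.2, 83.5 and 101 CPM in 12 h hearts, against 216, 223 and 201 CPM in sham hearts (-1.19 ± 0.15, adjusted p = 2.59e-06), and Cspg4, the NG2 proteoglycan of pericytes, had 62.9, 81.3 and 112 CPM in 12 h hearts, against 31.3, 34.6 and 30.9 CPM in sham hearts (1.40 ± 0.21, adjusted p = 1.54e-05). The lists thus held members that moved in opposite directions. Without sham replicate 1 or 12 h replicate 3 as few as 3 of the smooth muscle and pericyte genes were lower. Mesothelial genes were lower in 3 of 9 with 1 higher, 1 was lower without 12 h replicate 1, and 6 were lower with no filter on low counts. Genes of nerve and Schwann cells were lower in 4 of 9 with 1 higher, and 2 were lower without sham replicate 3 or 12 h replicate 2. Of 8 erythroid and 5 skeletal muscle genes tested, edgeR called 0, and 0 had an unadjusted p under 0.05.

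Of 25 vessel growth factors and their receptors 5 were higher and 5 lower, 20% each way and near the shares of all genes. As few as 3 were called each way when single libraries were left out. Apln, apelin (ENSMUSG00000037010, chrX:48025146-48034853, minus strand), had 2.20, 4.09 and 6.31 CPM in 12 h hearts, against 19.8, 25.5 and 19.9 CPM in sham hearts (-2.37 ± 0.29, adjusted p = 1.28e-06), and Vegfa fell by 0.84 on the log2 scale (adjusted p = 0.00021). Hbegf, an EGF receptor ligand, had 55.3, 58.8 and 139 CPM in 12 h hearts, against 17.4, 14.2 and 13.9 CPM in sham hearts (2.47 ± 0.34, adjusted p = 6.47e-06). Fgf2 had 42.1, 71.3 and 63.6 CPM in 12 h hearts, against 14.96, 13.9 and 19.5 CPM in sham hearts (1.87 ± 0.23, adjusted p = 1.91e-06). In all 4 genes the groups did not overlap.

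Heart muscle genes of mechanical stress rose, 16 of 21 with 1 lower and a median of 1.53. Ankrd1, a titin-bound repeat protein that also acts in the nucleus (ENSMUSG00000024803, chr19:36111961-36120099, minus strand), had 3705, 5434 and 4811 CPM in 12 h hearts, against 537, 739 and 682 CPM in sham hearts (2.83 ± 0.23, adjusted p = 4.61e-09), or 2308 ± 444 RPKM in 12 h hearts and 263 ± 37.7 RPKM in sham hearts (SD, n = 3 each) per kilobase. Ankrd2, its relative from skeletal muscle, had 15.5, 17.0 and 29.2 CPM in 12 h hearts, against 0.257, 0.205 and 0.640 CPM in sham hearts (5.83 ± 0.56, adjusted p = 4.88e-08). Nppa, atrial natriuretic peptide, had 139, 112 and 88.0 CPM in 12 h hearts, against 23.6, 16.4 and 7.28 CPM in sham hearts (2.83 ± 0.35, adjusted p = 1.43e-06), and Nppb had 200.4, 341 and 401 CPM in 12 h hearts, against 84.9, 84.1 and 43.6 CPM in sham hearts (2.15 ± 0.38, adjusted p = 0.00015). Every 12 h library exceeded every sham library in these 4 genes. Hspb1, a small heat shock protein of the Z-disc, had 657, 811 and 1110.1 CPM in 12 h hearts, against 158, 122.7 and 126 CPM in sham hearts (2.66 ± 0.25, adjusted p = 4.17e-08), and 89.4% of its mapped reads were unique. Actc1, cardiac actin, was the member that fell, with 5622, 5582 and 8399.5 CPM in 12 h hearts, against 12642, 11496 and 11167 CPM in sham hearts (-0.85 ± 0.15, adjusted p = 0.000127). Myh7, the slow myosin, was not called (-0.16).

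Sarcomere genes as a group differed little. Of 23 tested, 0 were higher and 6 lower, with a median of -0.21. With library totals 2 were higher and 3 lower and the median was 0.01. Mybpc3, cardiac myosin-binding protein C, had 2138, 1870.2 and 2262 CPM in 12 h hearts, against 3196, 3428 and 3098 CPM in sham hearts (-0.63 ± 0.13, adjusted p = 0.000748). Nebl, nebulette of the Z-disc, had 188, 224 and 272 CPM in 12 h hearts, against 462, 432 and 443 CPM in sham hearts (-0.97 ± 0.17, adjusted p = 0.000102), and Cmya5, myospryn, had 303, 328 and 386 CPM in 12 h hearts, against 649, 635 and 594 CPM in sham hearts (-0.89 ± 0.17, adjusted p = 0.000265). Of 18 ventricular cardiomyocyte markers 1 was higher and 6 lower, also with a median of -0.21 (0.01 with library totals) and a summed level of 71180 to 74330 CPM in 12 h hearts and 76470 to 83580 CPM in sham hearts. Without 12 h replicate 1, 3 of the 18 were lower. Fabp3, the fatty acid carrier of heart, had 2260.4, 2141 and 1895 CPM in 12 h hearts, against 1409, 1395 and 1458 CPM in sham hearts (0.56 ± 0.16, adjusted p = 0.00814).

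Most genes for the currents of the heartbeat fell. Of 28 ion channel genes 16 were lower (57.1%), 4 were higher, and the median was -0.90, or -0.70 with library totals. Potassium channels end each action potential, and most of those tested fell. Kcnv2, a silent potassium channel subunit, had 2.36, 2.73 and 3.01 CPM in 12 h hearts, against 12.97, 13.4 and 16.4 CPM in sham hearts (-2.40 ± 0.24, adjusted p = 6.63e-08). Kcnj3, a subunit of the channel that acetylcholine opens, had 18.5, 21.8 and 22.5 CPM in 12 h hearts, against 68.3, 63.7 and 69.6 CPM in sham hearts (-1.68 ± 0.19, adjusted p = 4.27e-07). Kcnd2, a pore subunit of the transient outward current, had 11.8, 12.6 and 12.5 CPM in 12 h hearts, against 29.9, 34.5 and 45.2 CPM in sham hearts (-1.57 ± 0.17, adjusted p = 2.4e-07), and its partner Kcnip2 had 72.5, 50.4 and 61.4 CPM in 12 h hearts, against 113, 175 and 142 CPM in sham hearts (-1.22 ± 0.18, adjusted p = 1.91e-05). In these 4 genes the highest 12 h library stayed well under the lowest sham library. Clcn1, a chloride channel, had 2.47, 1.36 and 4.21 CPM in 12 h hearts, against 10.6, 10.2 and 14.2 CPM in sham hearts (-2.12 ± 0.31, adjusted p = 1.42e-05), and Abcc9, the sulfonylurea receptor of ATP-sensitive channels in heart and vessels, had 204, 208 and 256 CPM in 12 h hearts, against 485, 555 and 464 CPM in sham hearts (-1.17 ± 0.15, adjusted p = 1.71e-06). Gja1, the main gap junction protein of ventricle, was not called (0.09). Without each library in turn 1 to 3 of the list were higher, and Gjc1, a connexin, was among those that lost the call.

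Calcium handling genes fell in 13 of 22 (59.1%), with 0 higher and a median of -0.49. Pln, phospholamban, which restrains the calcium pump, had 2949.5, 2779 and 3019 CPM in 12 h hearts, against 6917, 7183 and 7038 CPM in sham hearts (-1.27 ± 0.17, adjusted p = 5.16e-06). Atp2a2, the pump itself, had 9529, 9204 and 10125 CPM in 12 h hearts, against 15969, 14879 and 14696 CPM in sham hearts (-0.66 ± 0.11, adjusted p = 8.11e-05). Camk2a, a calmodulin kinase, had 23.0, 25.0 and 29.4 CPM in 12 h hearts, against 59.3, 58.4 and 52.4 CPM in sham hearts (-1.14 ± 0.17, adjusted p = 1.6e-05), and Cacna1c, the pore of the L-type calcium channel, had 169.8, 189 and 218 CPM in 12 h hearts, against 333, 356 and 346 CPM in sham hearts (-0.84 ± 0.15, adjusted p = 0.000158). The falls of Pln and Atp2a2 were not tested against each other. With library totals 10 of the 22 were lower. The cardiomyocyte marker sums given above moved in the same direction. They are on unscaled library totals, so their size cannot be set beside these falls, and Pln and Ryr2 stand in both lists. The part of the marker sums in these falls was not tested.

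**Figure D3:**
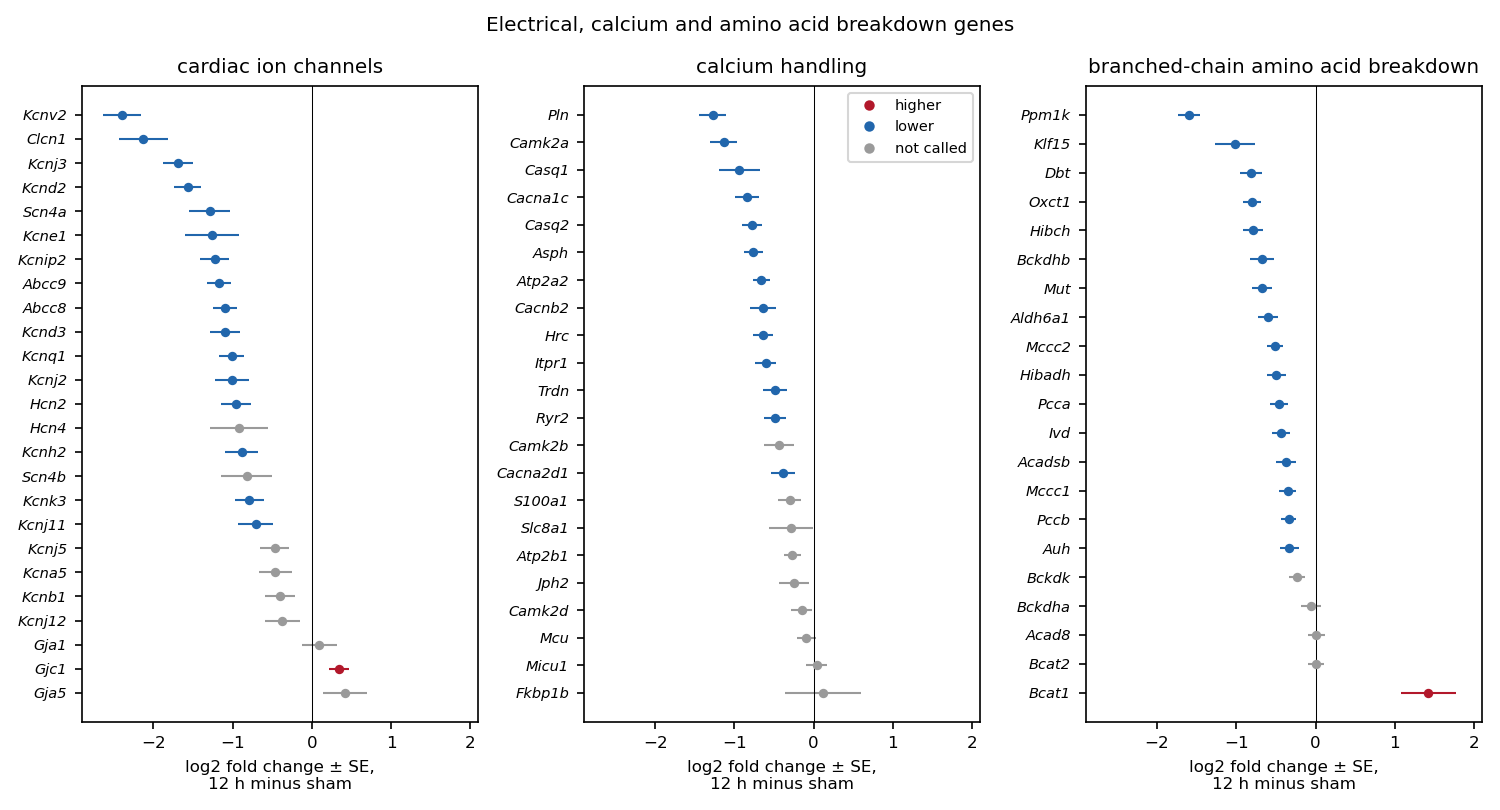
Log2 fold change ± SE, 12 h minus sham, of tested genes of 3 lists, leaving out those not reported here (n = 3 libraries per group), lower genes in blue, higher in red and others in grey. Kcnv2 and Clcn1 have the largest falls of the first panel, Pln has the largest fall of the second at -1.27, and Ppm1k that of the third at -1.599.

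Fuel use genes fell in part. Among 24 transcription regulators of metabolism 9 were lower and 2 higher, or 7 and 4 with library totals, under which the median was 0.05 in place of -0.17. Without each library in turn 1 of them was higher. Ppargc1a, the coactivator of mitochondrial genes, had 62.3, 55.2 and 68.7 CPM in 12 h hearts, against 147, 138 and 136 CPM in sham hearts (-1.17 ± 0.25, adjusted p = 0.000752), and Rxrg, a retinoid receptor, had 25.3, 24.7 and 22.5 CPM in 12 h hearts, against 62.5, 62.9 and 53.5 CPM in sham hearts (-1.30 ± 0.17, adjusted p = 4.75e-06). Klf15, a regulator of amino acid and lipid metabolism, had 35.9, 17.99 and 29.8 CPM in 12 h hearts, against 59.3, 51.8 and 58.0 CPM in sham hearts (-1.02 ± 0.25, adjusted p = 0.00309), and Esrrg, an oestrogen-related receptor, fell by 0.99 on the log2 scale (adjusted p = 2.42e-05). All 12 h libraries lay below all sham libraries for the 4 genes.

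Breakdown of branched-chain amino acids was the metabolic list with the largest share lower, 16 of 21 (76.2%) with 1 higher and a median of -0.46. With library totals 10 were lower. Klf15, counted among the regulators above, and the ketone enzyme gene Oxct1 are among the 16. Ppm1k, the phosphatase that activates the branched-chain dehydrogenase, had 37.7, 38.6 and 47.5 CPM in 12 h hearts, against 110.0, 143 and 122 CPM in sham hearts (-1.599 ± 0.14, adjusted p = 1.5e-08). Dbt, a core subunit of that enzyme, had 48.8, 43.6 and 58.3 CPM in 12 h hearts, against 81.7, 96.6 and 87.3 CPM in sham hearts (-0.82 ± 0.14, adjusted p = 8.6e-05), and Oxct1, an enzyme of ketone use, had 789, 694 and 857 CPM in 12 h hearts, against 1363, 1345 and 1362 CPM in sham hearts (-0.80 ± 0.11, adjusted p = 1.09e-05). Bcat1, the cytosolic aminotransferase, was the higher member (1.42 ± 0.35, adjusted p = 0.00276).

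Citric acid cycle genes were lower in 10 of 22 by small amounts, with a median of -0.26. This count did not hold: it was 2 with library totals and was as low as 3 without sham replicate 1, 12 h replicate 1 or 12 h replicate 2. Pdhb, a pyruvate dehydrogenase subunit, had 498, 441 and 519 CPM in 12 h hearts, against 721, 697 and 734 CPM in sham hearts (-0.56 ± 0.12, adjusted p = 0.00102), and Idh3a, an isocitrate dehydrogenase subunit, had 442, 399 and 513 CPM in 12 h hearts, against 669, 619 and 626 CPM in sham hearts (-0.50 ± 0.12, adjusted p = 0.00334). Of 31 fatty acid genes 6 were higher and 3 lower, near the shares of all genes, and 3 were higher without 12 h replicate 1. With the 6 compared libraries alone 8 were lower. Pdk4, a kinase that turns off pyruvate dehydrogenase, had 4131, 3379 and 2052 CPM in 12 h hearts, against 1942, 1596 and 1629.5 CPM in sham hearts (0.89 ± 0.21, adjusted p = 0.00232). Hadh, a step of beta-oxidation, had 392, 371 and 426 CPM in 12 h hearts, against 565, 589 and 615 CPM in sham hearts (-0.57 ± 0.12, adjusted p = 0.000753), and Pnpla2, a triglyceride lipase, rose 1.63-fold. Of 34 nuclear respiratory chain genes 1 was higher and 5 lower. With library totals 6 were higher and 0 lower, and as few as 1 was lower when single libraries were left out.

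Protein-coding genes of the mitochondrial genome were lower in 7 of 13, with a median of -0.74. With duplicate reads removed 4 were lower and the median was -0.39, with multiply mapped reads included 12 were lower, and with no filter on low counts 11 were. mt-Nd2, a complex I subunit, had 14114, 14727 and 19521 CPM in 12 h hearts, against 28926, 30789 and 35399 CPM in sham hearts (-0.98 ± 0.21, adjusted p = 0.000968). mt-Co1, a complex IV subunit, was also lower (-0.69 ± 0.19, adjusted p = 0.00712). The mitochondrial genome gave 20.6% to 24.04% of the reads of 12 h libraries and 28.9% to 33.2% of sham libraries, and the groups did not overlap. Strand use in the counting is not stated, so mt-Nd6, which lies opposite the other genes, cannot be told apart from antisense reads. The share of duplicates moved with this list, and its part beyond the values given was not tested.

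Glycolysis and hypoxia genes went both ways, 8 of 31 higher and 9 lower, or 11 higher and 5 lower with library totals. Pfkp, the platelet-type phosphofructokinase, had 152, 162 and 201 CPM in 12 h hearts, against 79.4, 70.0 and 65.2 CPM in sham hearts (1.26 ± 0.13, adjusted p = 6.63e-08), and Pfkfb2, the cardiac regulator of that step, had 15.9, 18.4 and 21.9 CPM in 12 h hearts, against 52.1, 72.8 and 58.8 CPM in sham hearts (-1.71 ± 0.22, adjusted p = 2.33e-06). Slc2a4, the insulin-regulated glucose transporter, had 176, 130.5 and 178 CPM in 12 h hearts, against 289, 329 and 311 CPM in sham hearts (-0.94 ± 0.14, adjusted p = 1.86e-05). Slc16a3, a lactate exporter, had 8.40, 10.8 and 13.8 CPM in 12 h hearts, against 1.54, 1.71 and 2.64 CPM in sham hearts (2.50 ± 0.37, adjusted p = 1.98e-05). The groups did not overlap for any of these 4 genes.

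The 2 genes in the study's title were not called at 12 h. Atf3, a stress-induced transcription factor (ENSMUSG00000026628, chr1:191170296-191218039, minus strand), had 5.99, 16.3 and 27.2 CPM in 12 h hearts, against 8.86, 8.08 and 8.47 CPM in sham hearts (log2 fold change 0.96 ± 0.52, adjusted p = 0.17). The first 12 h library lay below all sham libraries and the third well above, so the groups overlapped. Atf3 was lower at 12 h than at 6 h (-2.54, adjusted p = 0.00168). Fancd2, a DNA crosslink repair gene (ENSMUSG00000034023, chr6:113531682-113597017, plus strand), had 0.549, 0.606 and 0.114 CPM in 12 h hearts, against 0.449, 0.479 and 0.720 CPM in sham hearts (-0.34 ± 0.79, adjusted p = 0.78). These levels rest on 24 reads in 12 h hearts and 23 in sham hearts. Of 22 Fanconi anaemia genes 2 were higher and 2 lower, Slx4 (0.85 ± 0.20, adjusted p = 0.00169) and Fancl (-0.78 ± 0.20, adjusted p = 0.00401) among them.

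Lipid peroxidation and ferroptosis genes moved in both directions, 9 of 29 higher and 5 lower, with a median of 0.18, and as few as 2 were lower without sham replicate 3 or 12 h replicate 1. Gpx4, the enzyme that reduces lipid peroxides, was not called (0.01 ± 0.13). Slc3a2, the heavy chain of the cystine importer, had 66.2, 70.5 and 65.6 CPM in 12 h hearts, against 30.2, 24.7 and 24.1 CPM in sham hearts (1.35 ± 0.17, adjusted p = 2.37e-06). Slc7a11, its light chain, had 1.65, 3.03 and 4.83 CPM in 12 h hearts, against 0.257, 0.137 and 0.240 CPM in sham hearts (3.86 ± 0.58, adjusted p = 2.08e-05). Ptgs2, cyclooxygenase 2, had 3.63, 8.44 and 11.3 CPM in 12 h hearts, against 0.835, 0.890 and 1.76 CPM in sham hearts (2.77 ± 0.47, adjusted p = 9.73e-05). These 3 genes did not overlap between groups. Acsl4, which supplies polyunsaturated lipids, was not called (0.32). Tfrc, the transferrin receptor, had 52.4, 45.9 and 119 CPM in 12 h hearts, against 386, 257 and 103 CPM in sham hearts (-1.78 ± 0.53, adjusted p = 0.0117), with overlapping groups and a call lost without 12 h replicate 1, 12 h replicate 2 or sham replicate 1.

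NRF2 targets and glutathione genes were higher in 15 of 28 (53.6%), with 1 lower and a median of 0.49. Hmox1, which breaks down heme, had 72.2, 74.5 and 59.0 CPM in 12 h hearts, against 7.58, 5.96 and 7.995 CPM in sham hearts (3.26 ± 0.46, adjusted p = 9.3e-06). Srxn1, sulfiredoxin, had 45.4, 40.3 and 46.2 CPM in 12 h hearts, against 15.7, 13.7 and 18.2 CPM in sham hearts (1.47 ± 0.18, adjusted p = 1.76e-06), and Txnrd1, thioredoxin reductase, had 147, 139 and 142 CPM in 12 h hearts, against 63.8, 55.3 and 51.2 CPM in sham hearts (1.33 ± 0.14, adjusted p = 2.34e-07). Among 24 iron and heme genes 7 were higher and 2 lower, including Ftl1, the ferritin light chain (1.21 ± 0.20, adjusted p = 5.27e-05), and Hp, haptoglobin (3.63 ± 0.52, adjusted p = 1.29e-05). Fth1, the ferritin heavy chain, was not called (0.09).

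Cell death genes were higher in 8 of 25, with 1 lower. Nlrp3, the sensor of an inflammasome, had 3.24, 5.76 and 4.55 CPM in 12 h hearts, against 0.578, 0.548 and 0 CPM in sham hearts (3.497 ± 0.50, adjusted p = 1.04e-05). Ripk3, a necroptosis kinase, had 5.33, 6.97 and 7.22 CPM in 12 h hearts, against 3.08, 2.19 and 3.998 CPM in sham hearts (1.08 ± 0.26, adjusted p = 0.00249), and Bax, which opens the mitochondrial outer membrane, had 21.1, 19.4 and 20.6 CPM in 12 h hearts, against 10.1, 11.4 and 9.51 CPM in sham hearts (0.98 ± 0.19, adjusted p = 0.000328). Of 24 p53 targets 8 were higher and 4 lower, among them Phlda3 (1.06 ± 0.19, adjusted p = 0.000126) and Trp53inp1 (-1.25 ± 0.28, adjusted p = 0.00123). With library totals 13 of the p53 targets were higher and 2 lower. Leaving out sham replicate 1 or 12 h replicate 3 left as few as 5 of the p53 targets higher, leaving out sham replicate 3 or 12 h replicate 2 left as few as 2 lower, and leaving out sham replicate 2 or 12 h replicate 3 left as few as 5 of the cell death genes.

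Most genes for making ribosomes rose, 28 of 32 (87.5%) with 0 lower and a median of 0.85. Rrp12, a factor of ribosome export, had 94.8, 94.3 and 113 CPM in 12 h hearts, against 21.8, 18.3 and 20.5 CPM in sham hearts (2.32 ± 0.19, adjusted p = 4.61e-09). Nop2, an RNA methyltransferase of the nucleolus, had 39.8, 43.4 and 39.8 CPM in 12 h hearts, against 13.9, 12.0 and 15.8 CPM in sham hearts (1.56 ± 0.18, adjusted p = 5.46e-07), and Gnl3, nucleostemin, had 38.4, 54.8 and 53.6 CPM in 12 h hearts, against 18.6, 20.1 and 19.1 CPM in sham hearts (1.34 ± 0.17, adjusted p = 1.68e-06). All 12 h libraries lay above all sham libraries for these 3 genes. Of 35 ribosomal protein genes 19 were higher and 0 lower, with a median of 0.38, and 31 were higher with library totals. Rpl3 had 185, 254 and 221 CPM in 12 h hearts, against 115, 107 and 117 CPM in sham hearts (0.96 ± 0.12, adjusted p = 2.74e-06). Cell cycle genes did not share this rise, with 1 of 40 higher and 4 lower, and the higher gene, Cdk4, lost its call without 4 of the 6 libraries. Mcm2, a replication helicase subunit, had 3.52, 4.75 and 5.97 CPM in 12 h hearts, against 8.67, 9.45 and 10.1 CPM in sham hearts (-0.98 ± 0.20, adjusted p = 0.000541).

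Protein quality genes were mixed. Of 28 unfolded protein and integrated stress genes 8 were higher and 3 lower, with 14 higher under library totals and 5 without sham replicate 3. Atf4, the main factor of the integrated stress response, had 107, 121 and 88.9 CPM in 12 h hearts, against 34.5, 31.6 and 44.4 CPM in sham hearts (1.53 ± 0.20, adjusted p = 3.2e-06), and Psat1, a serine synthesis enzyme, rose 3.82-fold. Hspa5, the main chaperone of the endoplasmic reticulum, was not called (-0.08). Of 22 heat shock genes 5 were higher and 1 lower, as few as 2 were higher when single libraries were left out and as many as 10 with no filter on low counts, and Hspb1 and Cryab (0.84 ± 0.17, adjusted p = 0.000634) were the higher ones whose calls held without each library. Hspa1a and Hspa1b, near-identical HSP70 copies whose reads were 65.2% and 77.0% unique, are uncertain. Of 36 proteasome genes 7 were higher and 1 lower, but 22 were higher with library totals, led with trimmed-mean factors by Psmd11 (0.78 ± 0.11, adjusted p = 1.01e-05). Of 28 lysosome and clearance genes 14 were higher and 4 lower, or 2 lower without sham replicate 3 or 12 h replicate 3, and Cd63, a tetraspanin of lysosomes, was higher (0.98 ± 0.14, adjusted p = 8.97e-06) and Lamp1, a lysosome membrane protein, lower (-0.43 ± 0.10, adjusted p = 0.00257).

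Of 24 polyamine and NAD genes 6 were higher and 2 lower. Nmrk2, a nicotinamide riboside kinase of muscle, had 73.9, 109.9 and 157 CPM in 12 h hearts, against 12.1, 18.8 and 15.1 CPM in sham hearts (2.89 ± 0.39, adjusted p = 4.85e-06). Srm, spermidine synthase, rose 2.99-fold. Of 16 genes that glucocorticoids induce 7 were higher and 3 lower, or 1 lower without sham replicate 3. Fkbp5, a chaperone of the glucocorticoid receptor, had 241, 138 and 192 CPM in 12 h hearts, against 46.0, 12.5 and 25.4 CPM in sham hearts (2.76 ± 0.37, adjusted p = 5.12e-06), whereas Tsc22d3 was not called (-0.31). Angptl4, an inhibitor of lipoprotein lipase, had 337, 293 and 84.5 CPM in 12 h hearts, against 29.3, 25.5 and 14.2 CPM in sham hearts (3.37 ± 0.43, adjusted p = 2.31e-06), lowest in the third 12 h library. Of 19 clock genes 3 were higher and 4 lower, or 6 and 7 with no filter on low counts. Nr1d1, the repressor REV-ERB alpha, had 22.1, 25.5 and 28.2 CPM in 12 h hearts, against 68.5, 62.7 and 63.5 CPM in sham hearts (-1.36 ± 0.26, adjusted p = 0.000373), and Cry1 had 17.3, 16.7 and 19.5 CPM in 12 h hearts, against 11.04, 7.81 and 8.47 CPM in sham hearts (0.97 ± 0.21, adjusted p = 0.00112). The labels give no hour of the day for the tissue.

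Compared with 6 h, 982 genes (6.49%) were higher at 12 h and 1010 (6.68%) lower. With library totals 1768 were higher and 422 lower, so 80.7% of calls were higher, against 49.3% with trimmed-mean factors, and the median of all genes was 0.15. The count depended on single libraries: 368 were higher and 418 lower without 6 h replicate 2, 525 and 615 without 12 h replicate 1, and 550 and 636 without 12 h replicate 2. The comparisons of 12 h with sham and with 6 h share the 12 h libraries. Of the 2551 genes higher than sham, 366 were lower than at 6 h, 111 were higher and 2074 were not called. Of the 2256 lower than sham, 206 were higher than at 6 h, 153 were lower and 1897 were not called.

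Many immediate early genes and heat shock genes were lower at 12 h than at 6 h, 16 of 30 and 10 of 22. List counts against 6 h are for trimmed-mean factors and all 24 libraries, and were not repeated with library totals or without single libraries. Ier3 and Myc lost this call without 6 h replicate 2, and Hspa1a kept it without each 6 h and 12 h library. Hspa1a, subject to the doubt over its copies, had 3.30, 3.94 and 8.93 CPM at 12 h, against 45.6, 247 and 80.8 CPM at 6 h (-4.53 ± 0.73, adjusted p = 0.000264). Arc, an immediate early gene known from neurons, had 6.76, 6.37 and 10.5 CPM at 12 h, against 75.0, 153 and 26.5 CPM at 6 h (-3.44 ± 0.59, adjusted p = 0.000498), and Dusp10, a phosphatase of stress kinases, had 4.83, 6.27 and 7.85 CPM at 12 h, against 21.0, 45.7 and 57.2 CPM at 6 h (-2.71 ± 0.34, adjusted p = 2.36e-05). Otud1, a deubiquitinase, had 11.6, 23.2 and 71.3 CPM at 12 h, against 237, 754 and 333 CPM at 6 h (-3.64 ± 0.61, adjusted p = 0.000374). At 12 h the libraries of these 4 genes lay below all 6 h libraries, which their selection required. Against sham, 10 of the 30 immediate early genes were higher at 12 h, or 16 with the 6 compared libraries alone and 19 with no filter on low counts, with Ier3 at 49.0, 65.9 and 73.8 CPM in 12 h hearts, against 8.54, 9.66 and 15.3 CPM in sham hearts (2.50 ± 0.28, adjusted p = 3.41e-07) and Myc at 20.2, 28.2 and 31.8 CPM in 12 h hearts, against 5.84, 6.37 and 9.35 CPM in sham hearts (1.90 ± 0.33, adjusted p = 0.000121), whereas Fos (-0.12) and Egr1 (0.32) were not called and Dusp1 was lower (-1.13 ± 0.30, adjusted p = 0.00597). Ribosome biogenesis genes were lower at 12 h than at 6 h in 15 of 32 and higher in 0. Rrp12 and Gnl3 lost that call without 6 h replicate 2, and Nop2 kept it without each 6 h and 12 h library. Hbegf, higher than sham, was lower than at 6 h (-2.69 ± 0.33, adjusted p = 1.8e-05).

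Other genes stood higher at 12 h than at 6 h. Angpt1, an agonist of the endothelial receptor Tie2, had 40.8, 45.4 and 36.1 CPM at 12 h, against 9.11, 3.90 and 6.23 CPM at 6 h (2.67 ± 0.27, adjusted p = 3.79e-06), and was not called against sham (-0.44 ± 0.24, adjusted p = 0.165). Ky, a Z-disc protein, had 6.48, 4.29 and 7.79 CPM at 12 h, against 1.597, 0.488 and 1.12 CPM at 6 h (2.52 ± 0.34, adjusted p = 4.59e-05), while its 12 h level was below the sham level of 29.5, 31.2 and 32.1 CPM (-2.33 ± 0.26, adjusted p = 4.22e-07). Gal3st3 had 8.95, 7.78 and 7.56 CPM at 12 h, against 2.13, 0.793 and 1.99 CPM at 6 h (2.30 ± 0.27, adjusted p = 1.3e-05) and Slc26a10 had 45.3, 30.3 and 15.1 CPM at 12 h, against 8.93, 1.71 and 9.22 CPM at 6 h (2.19 ± 0.40, adjusted p = 0.000925). Kcnj3 was lower than sham and higher than at 6 h (1.20 ± 0.20, adjusted p = 0.000343). Loxl1, an elastin cross-linking enzyme, was higher at 12 h than at 6 h (0.71 ± 0.15, adjusted p = 0.00341) and than sham (0.89 ± 0.15, adjusted p = 0.00011).

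At 12 h 66 genes (0.436%) were higher than in each of the 7 other groups, and 110 (0.727%) were lower than in each. Without 12 h replicate 2 these counts were 30 and 47, without 12 h replicate 1 33 and 72, and without 6 h replicate 2 36 and 73. Arg1, Chil3, Spp1, Ahnak2, Star, Bicdl1 and Sema5a were among the 8 highest genes with the largest margin over the nearest group. Spp1 averaged 15.7 ± 2.85 CPM at 12 h, against 2.51 ± 1.98 CPM at 6 h (SD, n = 3 each) and a mean of at most 0.472 CPM in any other group. Ahnak2, a large scaffold protein, had 17.6, 15.7 and 16.6 CPM in 12 h hearts, against 6.29, 6.58 and 7.84 CPM in sham hearts, and the nearest group was 0.5 h, with a log2 difference of 1.07 (adjusted p = 0.00119). Sema5a, a guidance protein, had 30.4, 30.2 and 23.4 CPM in 12 h hearts, against 14.2, 12.3 and 10.6 CPM in sham hearts, and the smallest difference, from ischemia alone, was 1.00 (adjusted p = 0.000685). Bicdl1, an adaptor of dynein transport, differed from its nearest group, 1 h, by 1.00. Star, the cholesterol carrier of steroid-making cells, had 3.46, 6.37 and 9.72 CPM in 12 h hearts, against 2.31, 2.53 and 2.48 CPM in sham hearts, with 12 h replicate 3 highest, and was not highest of all groups without that library. Arg1 and Chil3 differed from 6 h by 1.93 and 1.12 and lost that call without several single libraries.

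Among the lowest, Apln stood apart most clearly. Its smallest difference, from 3 h, was -1.94 (adjusted p = 2.919e-05), and its 12 h libraries at 2.20 to 6.31 CPM lay below those of all other groups. Dusp18, a dual-specificity phosphatase, had 24.2, 14.8 and 19.1 CPM in 12 h hearts, against 88.4, 82.8 and 94.3 CPM in sham hearts (-2.19 ± 0.17, adjusted p = 3.17e-09) and differed from 6 h by -1.57. Nckap5 had 1.76, 2.53 and 2.79 CPM in 12 h hearts, against 9.12, 10.5 and 11.5 CPM in sham hearts (-2.13 ± 0.24, adjusted p = 4.16e-07), and Mdga1, a cell adhesion protein, had 4.28, 3.94 and 5.80 CPM in 12 h hearts, against 15.9, 19.7 and 14.9 CPM in sham hearts (-1.85 ± 0.18, adjusted p = 6.79e-08). These 3 held their place without each library in turn, as did Ift122, a subunit of the transport complex of cilia (-1.71 ± 0.25, adjusted p = 1.25e-05). Myh7b lost it without 12 h replicate 1 or 2, and Kcne1 without sham replicate 2. The class II genes H2-Aa, H2-Ab1 and H2-Eb1 belong here as well and held their place without each library.

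**Figure D4:**
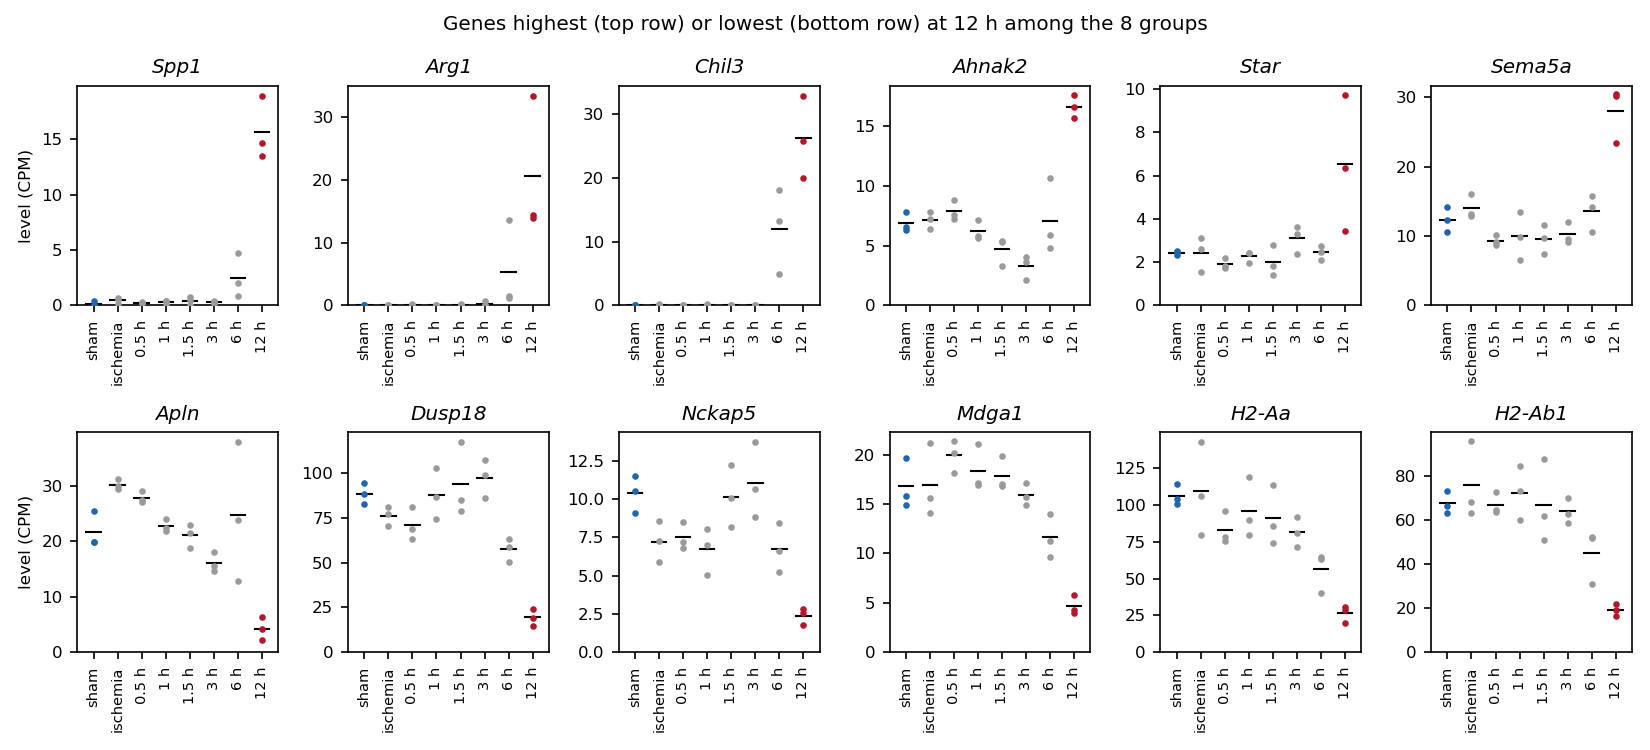
Level in CPM in all 8 groups in order of time, 1 point per library and a bar at the mean, of 6 genes highest at 12 h (top) and 6 lowest at 12 h (bottom), with sham in blue, 12 h in red and other groups in grey. Spp1, Arg1 and Chil3 are near 0 until 3 h, and Apln and Dusp18 fall below every other library at 12 h.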

How the data were processed

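RNA-seq was deposited as 1 table per library. Per the file headers, each table held whole-number counts of reads per Ensembl gene, with and without duplicate-marked and multiply mapped reads, and the authors' RPKM, read counts scaled to gene length and library depth. Per the submitters' processing notes, reads were placed on mm10. Which aligner, counter and strand setting were used is not given in the sources.

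Counts of uniquely mapped reads, duplicates included, were fitted across all 24 libraries with edgeR 4.0.16 in R 4.3.3 (filterByExpr with a minimum count of 10 and total of 15, TMM factors, quasi-likelihood test, 16 residual degrees of freedom). P-values were adjusted by Benjamini-Hochberg over 15128 genes, which held at least 99.92% of the counts of each library. CPM values of single genes were computed on TMM-scaled library sizes, and summed levels of lists on unscaled library totals. The 12 h libraries were compared with sham, with 6 h and with each other group. Samples were grouped by their treatment labels. Symbols were found for 98.0% of 46078 IDs. The fit was tested on simulated data.

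Named genes were the 20 largest rises and 14 largest falls against sham with a mean of at least 5 CPM in the higher group and no overlap. They also were the 3 called members of each list with the largest change (4 where both directions were called), Atf3 and Fancd2. Further ones were the 5 largest rises and falls against 6 h under the same conditions, and the 8 highest and 8 lowest of all groups. Other list members named in the text were chosen after their values were seen. The 59 lists (41 pathways, 18 cell types) and the comparison were chosen with earlier results of these data known. Some genes stand in several lists, such as Lcn2 in the neutrophil, acute phase, iron and glucocorticoid lists, so list counts are not separate results. For genes with 1 to 3 sham reads, ratios of pooled reads with exact 95% intervals replace fitted changes, and with 0 reads a bound at 3 reads. Alternatives were RLE factors, library totals, DESeq2 1.42.0, limma-voom (limma 3.58.1), no filter, a stricter filter, duplicates removed, multiply mapped reads included, a replicate block, the compared libraries alone and leaving out each library. Precision followed depth: 3 reads were 0.175 to 0.224 CPM of the unscaled totals of the 6 libraries. No replicate pair was identical, and counts of replicates differed by more than sampling noise. Some members of the lists and named genes are not reported here and are left out of the text and the labelled plots, but count in the numbers.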

Additional observations from a re-analysis of the deposited data

Results flagged for a closer look

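In 8 genes with large changes against sham, the difference from sham was not the same at 12 h and at 6 h, as tested by 12 h minus 6 h in edgeR's fit (log2 scale). Ptx3 was lower at 12 h than at 6 h by a log2 difference of -2.45, and Cxcl5 by -1.29. Spp1 was higher at 12 h than at 6 h by 2.64, Arg1 by 1.93 and Chil3 by 1.12. Among genes that fell against sham, Myh7b was further below sham at 12 h than at 6 h by -1.28, Col6a6 by -1.01 and Lrrc15 by -0.98. The calls of Spp1 and Ptx3 were kept without each 6 h and 12 h library in turn. That of Cxcl5 was lost without 6 h replicate 2. Myh7b lost its call without 12 h replicate 1 or 2, and Lrrc15 without 6 h replicate 1 or 12 h replicate 1 or 2. Col6a6 lost its call without 6 h replicate 1 or 3 or 12 h replicate 1 or 2. Chil3 lost its call without 6 h replicate 1 or 2 or 12 h replicate 1 or 2, and Arg1 without 6 h replicate 1 or 3 or any 12 h replicate.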

How the results depend on the processing

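Against sham, 4688 to 5407 genes were called under the alternatives to the scaling, test, filter, read type and libraries fitted, against 4807, and 3772 to 4314 without each single library. With library totals in place of TMM factors the number highest at 12 h was 163, against 66, and the number lowest was 38, against 110. Without single libraries the call count against 6 h ran from 786 to 1792, against 1992, the number highest at 12 h from 30 to 79 and the number lowest from 47 to 124. Of 205 called named genes, 170 kept the call and direction in every alternative run, and none of the 212 changed direction with a call. Library totals ended 14 calls of named genes, and moved the medians of 40 of 58 lists with tested genes by more than the spread between replicates. Replicate numbers showed no clear pairing of the libraries: deviations of same-numbered 12 h and sham libraries correlated at r = -0.021, 0.060 and 0.024. For same-numbered 12 h and 6 h libraries r was 0.145, 0.050 and -0.043. With 3 libraries per group these values cannot exclude pairing. With a replicate block 4695 genes were called against sham, 1880 against 6 h, and 62 were highest and 105 lowest. With library totals the median of all genes was 0.23, against 0.01 with TMM factors, so small changes in abundant muscle and metabolic genes depend on the scaling. Genes with few reads, such as Fancd2 with 24 and 23, are limited by depth. The cause of these shifts was not tested.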
